A study of Mus musculus with 8 samples.

Results

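The transcripts described here encode plasma proteins that hepatocytes secrete and metabolic enzymes that work inside hepatocytes, and they were measured in endothelial cells sorted from mouse liver. Of 37 listed genes, 35 had a probe set that the array's annotation pairs with 1 symbol only, out of 21161 genes tested. Ass1 and Glul have probe sets shared with another symbol and were not analysed here. The 35 genes comprised 23 of secreted proteins, 11 of enzymes and Fabp1, which encodes a fatty acid carrier of the cytoplasm.

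RNA came from 4 samples of YFP+ cells, which the labels call bone marrow-derived endothelial cells, and 4 samples of YFP- cells, called resident liver endothelial cells. All came from wild-type C57BL/6N mice irradiated at 8 weeks of age (9 Gy, given as 2 times 4.5 Gy) and then transplanted with 5000 LSK cells that carried YFP, a marrow fraction that holds blood stem and progenitor cells. The promoter that drives YFP is not given in the sources used here, and the groups share the irradiation and the transplant. After 1 month, CD45- CD31+ CD146+ liver cells, a gate meant to keep endothelial cells and leave out leukocytes, were collected by flow sorting in a YFP+ and a YFP- fraction. Each sample was measured on 1 array. The comparison asks how transcripts of marrow-derived liver endothelial cells differ from those of the resident cells.

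Hepatocytes are the main cell type of the liver by mass. They release albumin, lipoproteins and clotting factors into the blood, dispose of ammonia through the urea cycle, make glucose during fasting and oxidise drugs with cytochromes P450. These transcripts are among the most abundant in whole liver, and they are not the defining genes of endothelial cells.

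Levels below are log2 of the normalized intensity that the authors deposited, and differences are YFP+ minus YFP- on that scale. The 4 YFP+ and 4 YFP- arrays had nearly equal median intensities, from 159.9 to 165.2 units. The 11 measured pan-endothelial genes lay above the 95th percentile of an array's negative control probe sets on every array. That percentile lay between 8.73 and 9.04 on YFP+ arrays and between 8.98 and 9.10 on YFP- arrays. It serves below as the mark of a clear signal. By this mark most hepatocyte transcripts were dim: 23 of 35 were below it on every YFP+ array, and 32 of 35 were below it on every YFP- array. Only Alb and Apoe were above it on all 8 arrays. Over all genes, 16225 of 21161 were below it on every YFP+ array and 17418 on every YFP- array.

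A small set of plasma protein transcripts was higher in YFP+ cells. None of the 11 enzymes was called, which is near the share over all genes and is no contrast with secreted proteins. On longer lists, 1 of 37 other secreted proteins and 3 of 31 other hepatocyte enzymes were called. Alb, Ttr and Ambp were called higher, which is 3 of 35 genes or 8.57%, and no gene was called lower (limma, Benjamini-Hochberg adjusted p under 0.05). Over all genes tested, 1.61% were called, which divides into 1.27% higher and 0.336% lower. At an unadjusted p under 0.05 the count was 13 of 35, against 13.5% of all genes. Differences were positive in 32 of the 35 genes, where 50.4% of all genes had a positive difference, and the median log2 difference was 0.45 against 0.0019 over all genes. YFP+ values lay above all YFP- values in 6 of the 35 genes, or 17.1%, against 4.8% of all genes. In such bulk samples, a different number of cells with a transcript and a different amount of RNA per cell cannot be told apart. The count moved with single arrays: 1 gene was called without YFP- replicate 2, without YFP- replicate 4 or without YFP+ replicate 1, and 6 genes were called without YFP+ replicate 3. After subtraction of each array's median negative control, the differences were larger and the number called was 0, with 271 of all genes called.

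**Figure D1:**
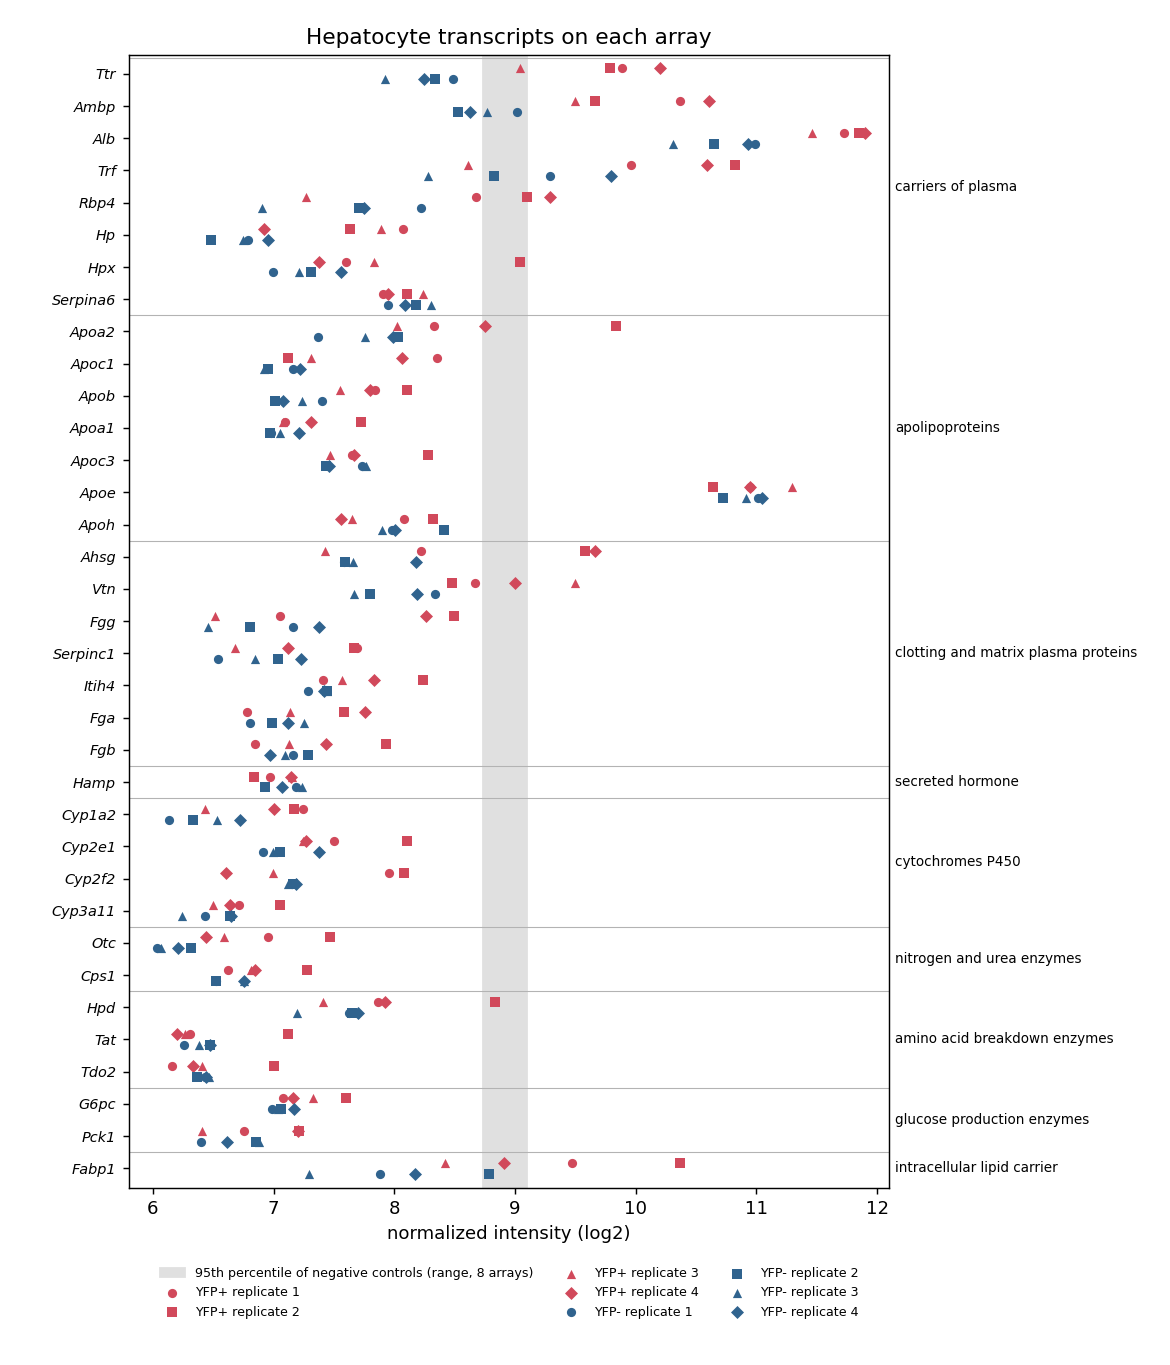
Normalized intensity (log2, x axis) of each of 35 hepatocyte transcripts on each array, with YFP+ values (red) above YFP- values (blue) and marker shapes for replicates 1 to 4; the grey band spans the 95th percentile of the negative controls over the 8 arrays. Alb and Apoe are the 2 genes to the right of the band on all arrays, and the YFP+ values of Ttr, Alb, Ambp, Apob, Vtn and Otc lie apart from the YFP- values.

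Carriers of the plasma gave all 3 calls. Albumin is the most abundant protein of blood plasma, and its transcript Alb (chromosome 5) stood at 11.72, 11.85, 11.46 and 11.90 on YFP+ arrays and at 10.99, 10.65, 10.31 and 10.93 on YFP- arrays. The groups did not overlap, and replicate 3 was the lowest array in each. Alb was 2.02-fold higher in YFP+ cells, a log2 difference of 1.01 (SE 0.17, limma adjusted p = 0.0200). The call ended without YFP- replicate 2 (limma adjusted p = 0.0802), YFP+ replicate 1 (0.0565) or YFP+ replicate 4 (0.0598), and after background subtraction (0.0628).

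Ttr (chromosome 18) encodes transthyretin, a carrier of thyroid hormone and of the retinol-binding protein complex. Its values were 9.88, 9.79, 9.04 and 10.20 on YFP+ arrays and 8.49, 8.34, 7.92 and 8.25 on YFP- arrays. Every YFP+ array was above every YFP- array, and again replicate 3 was the lowest of each group. The log2 difference was 1.48 (SE 0.23, limma adjusted p = 0.0134). Set against the control mark on YFP- arrays, which Ttr did not exceed there, it was at least 1.59-fold higher, since a transcript below the mark has only an upper limit there. The call missed the threshold without YFP- replicate 4 (limma adjusted p = 0.0509) and after background subtraction (0.0515).

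Ambp (chromosome 4) encodes a precursor that is cleaved into alpha-1-microglobulin and bikunin, a protease inhibitor. It stood at 10.37, 9.66, 9.50 and 10.61 on YFP+ arrays and at 9.02, 8.52, 8.77 and 8.63 on YFP- arrays. The groups did not overlap, and YFP+ replicates 1 and 4 were above YFP+ replicates 2 and 3. Its log2 difference was 1.30 (SE 0.24, limma adjusted p = 0.0316), and it was at least 1.96-fold higher against the same control mark. It was the least stable of the 3 calls. It was lost without any of the 4 YFP- arrays, without YFP+ replicate 1 or 4 and after background subtraction, with limma adjusted p-values from 0.0598 to 0.115, and it held without YFP+ replicate 2 or 3.

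Promoter sequence is shown for Alb and Ambp, as called genes, to place the letters that liver-enriched transcription factors are known to bind. The 250 bases before the start of transcription were taken from RefSeq (build GRCm38.p6) and are written on the strand of the gene. Capitals mark matches, on either strand, to GTTAAT (HNF1), TGTTTNC (FOXA), CAAAGT (HNF4) and TTGCNNAA (C/EBP). The Alb stretch is chr5:90460620-90460869 on the plus strand and the Ambp stretch is chr4:63154173-63154422 on the minus strand.
Alb: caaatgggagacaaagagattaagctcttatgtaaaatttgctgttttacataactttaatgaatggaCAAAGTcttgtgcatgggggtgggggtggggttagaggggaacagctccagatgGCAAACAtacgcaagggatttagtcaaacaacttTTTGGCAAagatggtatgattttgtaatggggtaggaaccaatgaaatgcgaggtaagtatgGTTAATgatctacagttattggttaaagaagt
Ambp: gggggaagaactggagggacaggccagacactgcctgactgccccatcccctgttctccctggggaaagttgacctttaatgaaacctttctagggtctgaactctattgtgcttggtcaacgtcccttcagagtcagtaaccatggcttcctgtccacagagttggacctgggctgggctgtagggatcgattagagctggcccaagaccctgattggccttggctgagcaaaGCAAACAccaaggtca
Alb held 1 match to each of the 4 motifs, with GTTAAT starting 32 bases before the start, and Ambp held 1 match, to the FOXA letters, starting 16 bases before it. No 2 of these matches overlapped. RefSeq promoters were found for 28 of the 35 genes, as 32 stretches, of which 8 (25%) held GTTAAT, 14 (43.8%) TGTTTNC, 6 (18.8%) CAAAGT and 9 (28.1%) TTGCNNAA. Among all 32851 promoter stretches of that length the shares were 6.43%, 17.8%, 12.6% and 9.56%. These are matches of letters, and no binding was measured.

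The other carriers did not pass the test. Trf encodes transferrin, the iron carrier of plasma, and stood at 9.96, 10.82, 8.61 and 10.59 on YFP+ arrays and at 9.29, 8.83, 8.28 and 9.80 on YFP- arrays (log2 difference 0.95, limma adjusted p = 0.423). Rbp4, the retinol carrier that travels with transthyretin, stood at 8.67, 9.10, 7.27 and 9.29 on YFP+ arrays and at 8.22, 7.71, 6.91 and 7.75 on YFP- arrays (log2 difference 0.94, limma adjusted p = 0.367). In both genes the groups overlapped because of the low YFP+ replicate 3, and replicate 3 was the lowest YFP- array too. Without YFP+ replicate 3, Rbp4 was called (log2 difference 1.37, limma adjusted p = 0.0317). Hp, which encodes the haemoglobin scavenger haptoglobin, differed by 0.89 (limma adjusted p = 0.0995), with 3 YFP+ arrays at 8.07, 7.63 and 7.89 and replicate 4 at 6.92, within the YFP- range of 6.48 to 6.95. It was called without YFP+ replicate 4 (limma adjusted p = 0.0213). Hpx, the haem carrier hemopexin, reached 9.04 on YFP+ replicate 2 and lay between 7.38 and 7.83 on the other YFP+ arrays, against 6.99 to 7.56 on YFP- arrays (limma adjusted p = 0.377). Serpina6, the glucocorticoid carrier, had a difference of -0.08 (95% interval -0.36 to 0.20).

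Apolipoproteins are the protein parts of lipoprotein particles, and none of the 7 was called by limma, with 3 of 7 at an unadjusted p under 0.05. Apoe, which macrophages and other cells also make, stood at 10.94, 10.64, 11.30 and 10.95 in YFP+ cells and at 11.01, 10.72, 10.91 and 11.05 in YFP- cells. It thus had a clear signal in every sample, like Alb, and a log2 difference of 0.03 (95% interval -0.30 to 0.37). Apob, the structural protein of very low density lipoprotein, stood at 7.84, 8.10, 7.55 and 7.80 in YFP+ cells and at 7.41, 7.02, 7.24 and 7.07 in YFP- cells. These groups did not overlap, but the difference of 0.64 missed the threshold (SE 0.15, limma adjusted p = 0.0629). Apob was called without YFP+ replicate 3 (limma adjusted p = 0.0230) and with array weights (0.0234).

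Apoa2, a protein of high density lipoprotein, reached 9.84 on YFP+ replicate 2 and stood at 8.33, 8.03 and 8.75 on YFP+ replicates 1, 3 and 4, against 7.37 to 8.03 on YFP- arrays (log2 difference 0.95, limma adjusted p = 0.233). Apoc1, a small exchangeable apolipoprotein, had another order: 8.36 and 8.07 on YFP+ replicates 1 and 4, but 7.12 and 7.31 on YFP+ replicates 2 and 3, against 6.92 to 7.22 on YFP- arrays (log2 difference 0.65, limma adjusted p = 0.278). Apoc1 was thus high on the same YFP+ arrays as Ambp. Apoa1, the main protein of high density lipoprotein, and Apoc3, an inhibitor of lipoprotein lipase, had differences of 0.25 and 0.17. Apoh, beta-2-glycoprotein I, had the lowest value of the 35 genes, -0.17 (95% interval -0.60 to 0.25).

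Clotting and matrix proteins of plasma had 7 positive differences and no call, with 1 of 7, Vtn, at an unadjusted p under 0.05. Vtn encodes vitronectin, an adhesive plasma protein, and stood at 8.67, 8.48, 9.50 and 9.00 on YFP+ arrays and at 8.33, 7.80, 7.67 and 8.19 on YFP- arrays. These groups did not overlap either, and YFP+ replicate 3, the lowest YFP+ array for 18 of the 35 genes, was the highest. The difference was 0.92 (SE 0.23, limma adjusted p = 0.0917). Ahsg, the mineral-binding glycoprotein fetuin-A, stood at 8.22, 9.58, 7.42 and 9.66 on YFP+ arrays and at 7.58, 7.59, 7.66 and 8.18 on YFP- arrays (log2 difference 0.97, limma adjusted p = 0.380). YFP+ replicate 3 was below every YFP- array for Ahsg.

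The 3 fibrinogen chains, which are assembled into 1 clotting protein and lie together on chromosome 3, were close to background. Fgg stood at 7.05, 8.50, 6.51 and 8.26 on YFP+ arrays and at 7.16, 6.80, 6.45 and 7.38 on YFP- arrays. Fga and Fgb were likewise higher on YFP+ replicates 2 and 4, at 7.59 and 7.76 for Fga and 7.93 and 7.44 for Fgb, and at 6.78 to 7.14 on YFP+ replicates 1 and 3. YFP- values of Fga and Fgb lay between 6.80 and 7.28. Differences of Fga, Fgb and Fgg were 0.28, 0.21 and 0.63, with limma adjusted p-values from 0.579 to 0.757. Serpinc1, which encodes the clotting inhibitor antithrombin, had a difference of 0.38, and Itih4, an acute phase protein, of 0.37. Hamp, the iron hormone hepcidin, lay between 6.84 and 7.15 in YFP+ cells and between 6.93 and 7.24 in YFP- cells, a difference of -0.08 (95% interval -0.35 to 0.20).

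**Figure D2:**
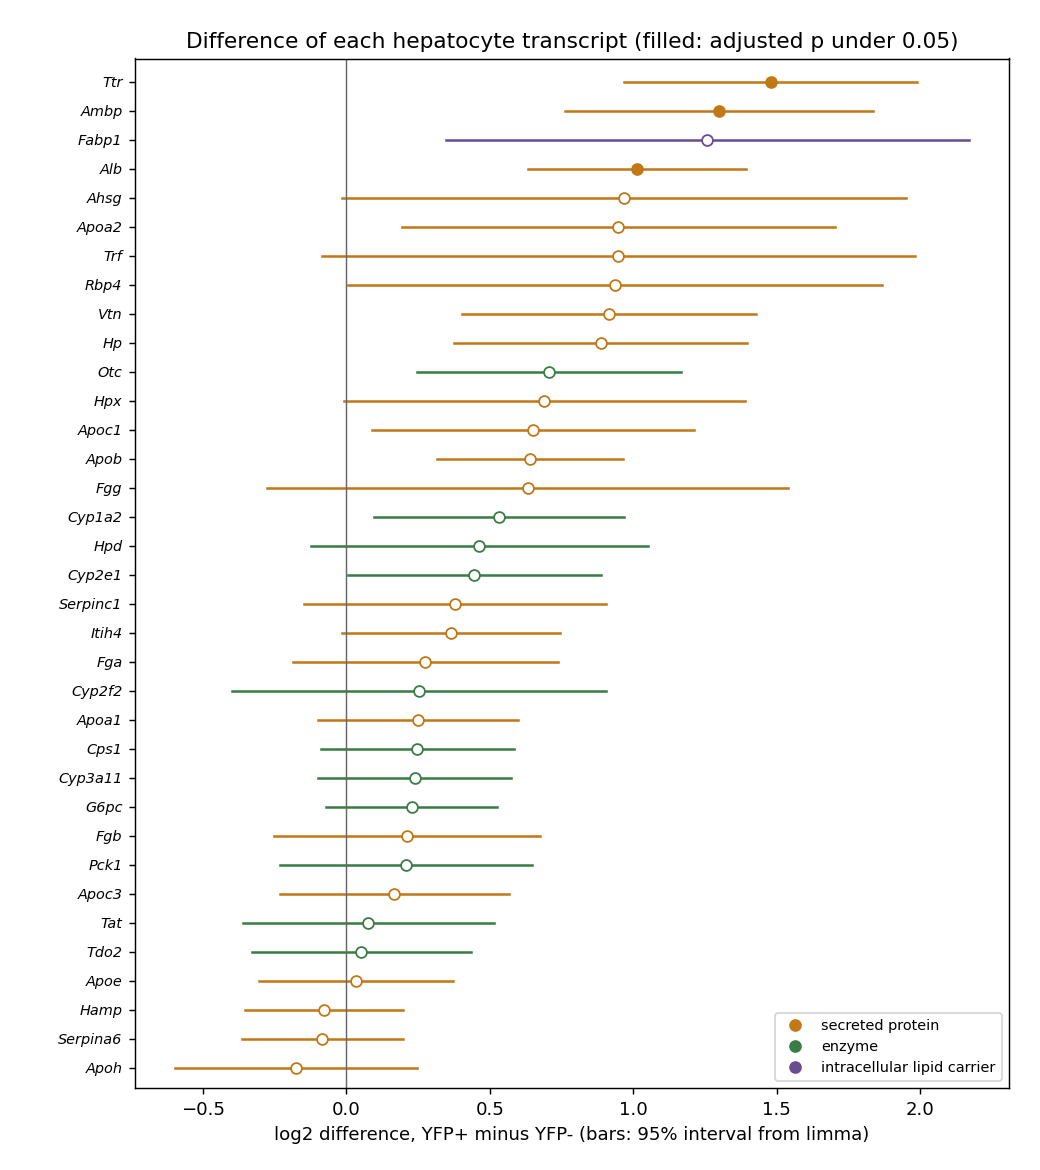
Log2 difference (x axis) of each transcript between YFP+ and YFP- cells with the 95% interval from limma, ordered by size; filled points passed the test. The 3 filled points are Ttr (1.48), Ambp (1.30) and Alb (1.01), and all 11 enzymes lie between 0.05 and 0.71.

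No enzyme was called, where 1.61% of all genes were. At an unadjusted p under 0.05 the count was 3 of 11, namely Otc, Cyp1a2 and Cyp2e1, against 13.5% of all genes. All 11 had positive differences, with a median of 0.25. None was above the control mark on any YFP- array, and among them Hpd alone passed it on a YFP+ array, replicate 2. Otc (chromosome X) encodes ornithine transcarbamylase of the urea cycle and stood at 6.96, 7.47, 6.59 and 6.44 on YFP+ arrays and at 6.03, 6.32, 6.06 and 6.21 on YFP- arrays. The groups did not overlap, and the difference of 0.71 missed the threshold (SE 0.21, limma adjusted p = 0.143). Cps1, which catalyses the entry step of that cycle, had a difference of 0.25 (limma adjusted p = 0.551).

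Cytochromes P450 oxidise drugs and other foreign compounds. Cyp1a2 stood at 7.24, 7.17, 6.43 and 7.01 on YFP+ arrays and at 6.13, 6.33, 6.53 and 6.72 on YFP- arrays (log2 difference 0.53, limma adjusted p = 0.246). It was called without YFP+ replicate 3 (limma adjusted p = 0.0407). Cyp2e1 and Cyp1a2 are known from the hepatocytes around the central vein, and Cyp2f2 from those around the portal vein. Cyp2e1 had a difference of 0.45 and Cyp2f2 of 0.25, and Cyp2f2 was uneven: 7.96 and 8.08 on YFP+ replicates 1 and 2, 6.61 on YFP+ replicate 4 and a value below every YFP- array on YFP+ replicate 3 as well, against 7.12 to 7.19 on YFP- arrays. Cyp3a11, whose probe set may also bind transcripts of its close relatives, had a difference of 0.24.

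Amino acid and glucose enzymes had small differences. Hpd, of tyrosine breakdown, reached 8.84 on YFP+ replicate 2 and lay between 7.41 and 7.92 on the other YFP+ arrays, against 7.19 to 7.70 on YFP- arrays (log2 difference 0.46, limma adjusted p = 0.513). Tat, which starts tyrosine breakdown, stood at 7.12 on YFP+ replicate 2 and at 6.20 to 6.31 on the other YFP+ arrays, against 6.26 to 6.48 on YFP- arrays. Tdo2, which starts tryptophan breakdown, stood at 7.01 on YFP+ replicate 2 and at 6.16 to 6.40 on the others, against 6.37 to 6.46 on YFP- arrays. The differences of Tat (0.08) and Tdo2 (0.05) therefore came from 1 array, and both were negative without it (-0.14 and -0.12). The glucose-producing enzymes Pck1 and G6pc had differences of 0.21 and 0.23. Fabp1 stood at 9.47, 10.37, 8.42 and 8.91 on YFP+ arrays and at 7.88, 8.79, 7.30 and 8.17 on YFP- arrays. Its log2 difference of 1.26 was the third of the 35 in size but did not pass the test (SE 0.41, limma adjusted p = 0.189). The groups overlapped, with YFP+ replicate 3 (8.42) below YFP- replicate 2 (8.79), so no lower bound on a fold is given.

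Among these 34 genes, secreted proteins had larger mean differences than enzymes on each YFP+ array, which did not hold on longer lists of other hepatocyte genes. The median log2 difference was 0.64 for the 23 secreted proteins and 0.25 for the 11 enzymes, with ranges from -0.17 to 1.48 and from 0.05 to 0.71 that overlapped. The mean of the secreted list stood 0.50, 0.88, 0.21 and 0.72 above its YFP- mean on YFP+ replicates 1 to 4, and that of the enzymes 0.28, 0.81, 0.03 and 0.14. The 2 lists were thus close on replicate 2 and far apart on replicate 4. For 37 other secreted proteins and 31 other hepatocyte enzymes the medians were 0.09 and 0.10. Their list means stood 0.04, 0.32, 0.19 and 0.16 above YFP- for the secreted proteins and 0.20, 0.38, 0.29 and 0.15 for the enzymes, so the enzymes were ahead on 3 of 4 arrays. Enzymes were also dimmer, with a median YFP- level of 6.64 against 7.60 for secreted proteins, and the part of background in their smaller differences was not tested. With each array's median negative control subtracted, the medians were 1.31 and 0.59. Without YFP+ replicate 2 they were 0.33 and 0.12.

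Level in YFP- cells and difference were weakly related across the 35 genes (Pearson r = 0.28, Spearman rho = 0.33), which share all 8 arrays and differ in probe response. Without Apoe, the 34 others gave r = 0.48 and rho = 0.44. With both bright genes, Alb and Apoe, left out, the 33 others gave r = 0.47 and rho = 0.39. Within the 23 secreted proteins r was 0.15 and rho 0.28, and within the 11 enzymes r was 0.01 and rho 0.15. Over all 21161 genes r was -0.23 and rho -0.29, the opposite sign. The YFP- mean is also the term subtracted in the difference, so its error enters both quantities with opposite signs. The part of this in the correlations was not tested.

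**Figure D3:**
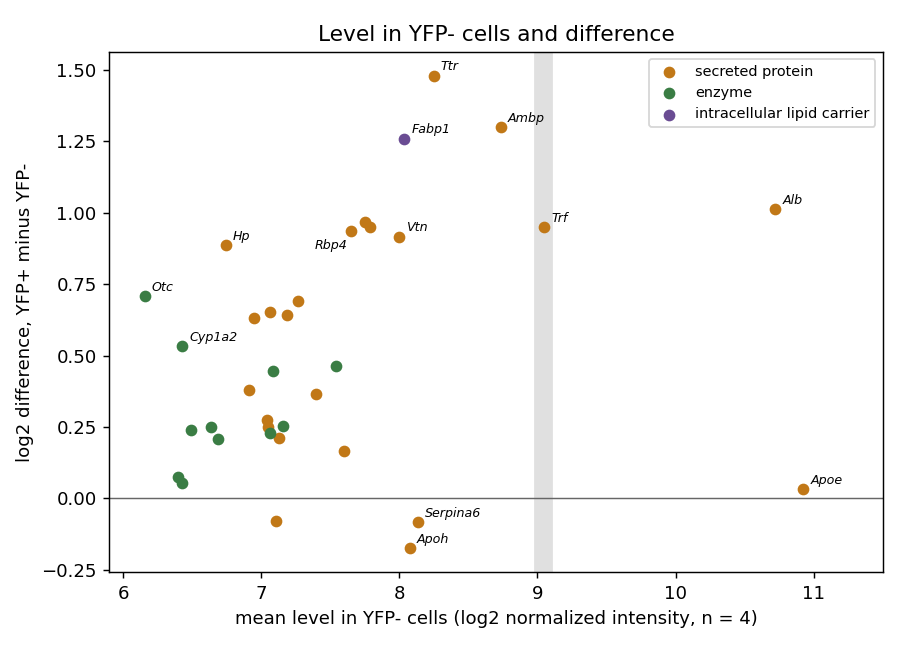
Mean log2 level in YFP- cells (x axis) against the log2 difference between YFP+ and YFP- cells (y axis) for 35 transcripts, coloured by kind; the grey band spans that percentile of negative controls over the YFP- arrays. Alb and Apoe, the brightest points, have differences of 1.01 and 0.03.

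The YFP+ arrays differed among themselves in these transcripts, with replicate 2 most often the highest and replicate 3 most often the lowest. Replicate 2 was the highest YFP+ array for 21 of the 35 genes and for 10 of the 11 enzymes, against 22.9% of all genes. Replicate 3 was the lowest for 18 of the 35, against 26% of all genes. On replicate 2, 30 of the 35 genes and all 11 enzymes lay above every YFP- array, against 25.7% of all genes. On replicate 3 the count was 13 of 35, or 37.1%, against 38.7% of all genes. The SD over YFP+ arrays exceeded that over YFP- arrays in 34 of the 35 genes, Alb being the exception, as it did in 68.5% of all genes.

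Markers of other cell types also differed between the groups and among the YFP+ arrays. On YFP+ replicates 1 to 4 the mean of 10 pan-leukocyte genes stood at 9.03, 10.20, 8.62 and 9.25, against 7.21 to 7.61 on YFP- arrays, with 5 of 10 called higher. It was highest on replicate 2 and lowest on replicate 3, as was the mean of the 35 hepatocyte transcripts at 7.96, 8.40, 7.66 and 8.05 on YFP+ arrays and 7.39 to 7.63 on YFP- arrays. The mean of 11 pan-endothelial genes was lowest on replicate 2, at 10.67, 10.38, 10.75 and 10.58 on YFP+ arrays, against at least 10.90 on each YFP- array. That of 10 bile duct genes, 7 of them called higher, was 9.73, 9.01, 9.18 and 9.62 on YFP+ arrays and 7.97 to 8.43 on YFP- arrays. This is the order in which replicates 1 and 4 lead, seen above for Ambp and Apoc1. The called leukocyte genes were Laptm5, Cd53, Spi1, Tyrobp and Lcp1. The 4 other than Lcp1 were below the control mark on every YFP- array. By their YFP+ means they were at least 1.36-fold (Spi1) to 3.23-fold (Laptm5) higher in YFP+ cells. Spi1 on YFP+ replicates 1 and 3 (8.84 and 8.77) was itself under the mark of the YFP- arrays. Ptprc, which encodes CD45, was not called and stood at 9.06, 10.08, 7.22 and 8.82 on YFP+ arrays and 6.79 to 7.64 on YFP- arrays. The called genes on the bile duct list were Krt7, Krt8, Krt18, Krt19, Cdh1, Spp1 and Cldn7. Of these, Krt8, Krt18 and Cdh1 are also known in hepatocytes, so they do not tell bile duct cells from hepatocytes. Cdh1, with a clear signal on 2 YFP- arrays, was 3.38-fold higher and Spp1, with one on all 4, 2.89-fold higher, while Krt8, dim on YFP- arrays, was at least 2.36-fold higher. Of 9 megakaryocyte and platelet genes, all had positive differences and Ppbp, Pf4 and Gp6 were called. The list mean stood 1.18, 1.08, 1.10 and 0.88 above YFP- on YFP+ replicates 1 to 4, and Ppbp, a platelet chemokine, was at least 2.86-fold higher (limma adjusted p = 5.5e-07). All 10 sinusoidal endothelial genes had negative differences and none was called, with 4 of 10 at an unadjusted p under 0.05. Among pan-endothelial genes Tek, the angiopoietin receptor, was called lower (log2 difference -0.73, limma adjusted p = 0.0224). Kupffer cell and macrophage genes (3 of 10 called higher, namely Cd5l, C1qa and Csf1r) had means of 7.76, 7.81, 7.28 and 7.43 on YFP+ arrays and 6.82 to 7.13 on YFP- arrays. The part of these cell types, or of any single array, in the hepatocyte values was not tested.

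**Figure D4:**
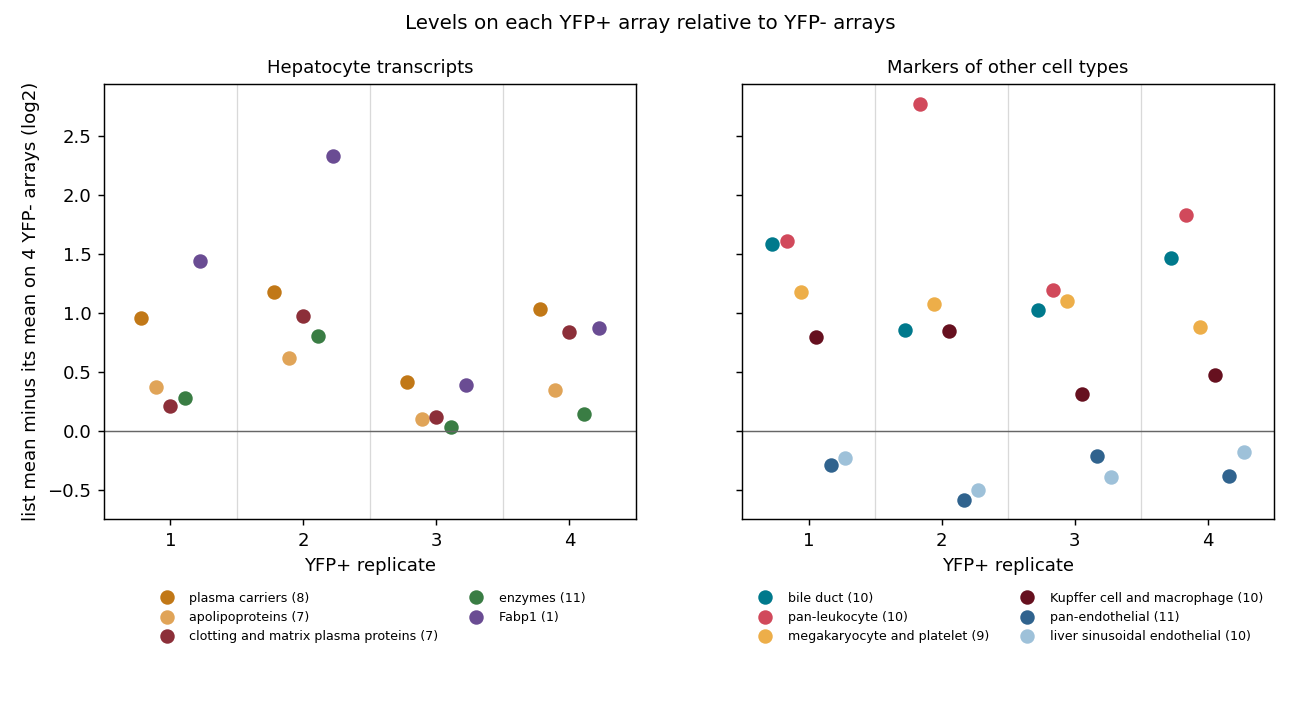
Mean log2 level of each gene list on YFP+ replicates 1 to 4 (x axis) relative to its mean over the 4 YFP- arrays (y axis), for hepatocyte transcripts (left) and markers of other cell types (right), with the number of genes in brackets. Replicate 2 is highest for every list on the left and for pan-leukocyte genes (2.78), and bile duct genes are highest on replicate 1 (1.58).

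Other hepatocyte genes gave few calls. Of 90 measured genes on 4 further lists, 5 were called higher and none lower, or 5.56% against 1.61% of all genes, and 68 had positive differences with a median of 0.12. Among 37 other secreted proteins 1 was called: Gc, the vitamin D carrier, stood at 9.27, 10.32, 9.48 and 9.86 on YFP+ arrays and at 8.06, 7.87, 7.22 and 7.72 on YFP- arrays (limma adjusted p = 0.00502). Gc was below the control mark on every YFP- array and was at least 1.59-fold higher. Cp, the copper-carrying ferroxidase ceruloplasmin, had a clear signal on all 8 arrays and differed by 0.68 (limma adjusted p = 0.0514). Among 31 other enzymes 3 were called, namely the liver glycogen phosphorylase Pygl, the glutathione transferase Gsta3 and the methionine adenosyltransferase Mat1a, with limma adjusted p-values of 0.00596, 0.0180 and 0.0484. All 3 were below the control mark on every YFP- array. Gsta3 was at least 1.49-fold higher, and the YFP+ means of Pygl (8.62) and Mat1a (8.19) were themselves under the mark, so no fold is given for them.

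Of 12 transcription factors known in hepatocytes, all had positive differences and Onecut1, also a factor of bile duct cells, was called (log2 difference 1.25, limma adjusted p = 0.0376). Its YFP+ mean of 8.56 was under the control mark, so no fold is given. The mean of these factors stood 0.34, 0.25, 0.34 and 0.46 above YFP- on YFP+ replicates 1 to 4, lowest on replicate 2, where the 35 transcripts were highest. Hnf4a, a defining factor of hepatocytes, stood at 7.62, 7.89, 7.65 and 8.05 on YFP+ arrays and at 7.11, 7.29, 7.27 and 7.15 on YFP- arrays, all below the control mark. Its difference was 0.60 (limma adjusted p = 0.0514). None of 10 membrane transporters and receptors was called, although Slc2a2, the glucose transporter of hepatocytes, had a difference of 1.39 (limma adjusted p = 0.0736). At an unadjusted p under 0.05 the count on that list was 3 of 10. The count of 5 over the 90 genes was 8 without YFP+ replicate 3 and 2 or 3 without YFP+ replicate 1 or 4 or any 1 YFP- array.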

How the data were processed

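RNA of sorted cells was labelled with the 3' IVT Pico kit from 100 pg of total RNA, per the labels' protocols, and measured on Affymetrix arrays. Per the file headers, the deposited intensity values are normalized, and they are linear. The larger deposited table also holds the authors' ratio of group means (a fold) and an unadjusted p-value from an unnamed test, neither used here. For array model, probe set summary, background correction and build, the answer is the same: not given in the sources used here.

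Both tables hold identical intensities where they overlap. No normalization was added to the log2 of the intensities. Of 22206 gene probe sets, 21374 had 1 symbol in the deposited annotation, updated through Entrez numbers and RefSeq (GRCm38.p6), which also gave chromosomes. The brightest probe set per gene over the 8 arrays was taken, which left 21161 genes with no missing value and no filter on dim genes. YFP+ was set against YFP- by lmFit and eBayes of limma 3.58.1 (R 4.3.3, two-sided, no covariate), with p adjusted by Benjamini-Hochberg over all genes at 0.05, and the procedure was tested on simulated data. SDs are over 4 arrays. Samples were grouped by titles, which call them biological replicates. No source says whether samples were pooled or which came from 1 mouse, so a p-value here covers the spread among these 8 arrays. The number of arrays limits precision. A lower bound on a fold set the YFP+ mean against, for YFP- arrays, the 95th percentile of 5049 negative controls. It does not cover the spread among YFP+ arrays. Tables and plots were made with Python 3.11.15, numpy 2.4.6, pandas 2.3.3 and matplotlib 3.10.9.

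The members, lists, motifs and alternatives were chosen with earlier results of these data known. The rule for names covers every member, called genes of the other hepatocyte lists with up to 4 more per list by smallest p, and per cell type the called genes with the 4 smallest p and defining markers. Called genes beyond the 4 are named as well, and not every gene the rule allows is given. Alternatives covered normalization, background, dim genes, probe sets, weights, moderation, a replicate block and left-out arrays.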

Additional observations from a re-analysis of the deposited data

Results flagged for a closer look

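Among the 70 groups of 4 arrays (35 genes in YFP+ and in YFP- cells), 3 held an array set apart from the other 3, judged by its gap to the nearest array over the whole range (Dixon's 95% criterion). Chance flags about 1 in 20 groups. Tat stood at 7.12 on YFP+ replicate 2, against 6.20 to 6.31 on the other YFP+ arrays. Ahsg stood at 8.18 on YFP- replicate 4, against 7.58 to 7.66 on the other YFP- arrays. Hpd stood at 7.19 on YFP- replicate 3, against 7.62 to 7.70 on the other YFP- arrays.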

How the results depend on the processing

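The counts depended on single arrays: leaving out each array in turn gave 115 to 636 genes called (340 with all), 1 to 6 hepatocyte transcripts (3 with all), 2 to 8 other hepatocyte genes (5 with all), and medians of 0.33 to 0.73 for secreted proteins and 0.12 to 0.37 for enzymes. Array weights gave 695 genes and 9 other hepatocyte genes, and 586 genes were called when YFP+ replicates 2 and 3 were both left out. Subtracting the negative control median gave 0 hepatocyte transcripts called and medians of 1.31 and 0.59. Leaving out dim genes left 5 hepatocyte transcripts and no enzyme, with 3 of 5 other hepatocyte genes called and a secreted median of 1.01. Ttr and Ambp passed that filter through YFP+ arrays alone, as did Gc and Gsta3 among the other hepatocyte genes. This median and the count of 3 of 5 thus describe genes chosen partly by their high group. The cause of these shifts was not tested. Quantile and cyclic loess normalization, the mean of probe sets and trended, robust moderation each kept the calls of Alb, Ttr and Ambp.

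Over 17 alternatives the sign of a difference turned 9 times, in Apoc3, Apoe, Hamp, Tat and Tdo2. With single arrays left out, Apoc3 ranged from -0.0048 to 0.27, Apoe from -0.080 to 0.14, Tat from -0.14 to 0.17 and Tdo2 from -0.12 to 0.16. Apoe was -0.019 with array weights and Hamp 0.30 after background subtraction. Leaving out both YFP+ replicates 2 and 3 gave -0.15 for Tat and -0.18 for Tdo2. None of these genes was called in any setting.

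With the replicate number as a block, 241 genes, 4 hepatocyte transcripts (Fabp1 in addition, difference 1.26, limma adjusted p = 0.0251) and 7 other hepatocyte genes were called, and no call of Alb, Ttr or Ambp was lost. The deviations of same-numbered arrays from their group means correlated by 0.159, 0.0194, 0.0999 and 0.0781, not all above 0.1, so the numbers were not taken to pair the samples. YFP+ replicates 1, 3 and 4 each correlated most with their own number, and replicate 2 with YFP- replicate 3 (0.0272), which is a hint from the data. A deposited table numbers the columns of both groups 2 to 5, with no statement of what the number marks. Most hepatocyte transcripts lay within the range of the negative controls, which limits what single values can show.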
